A study of Mus musculus with 5 samples.

Results

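Intestinal stem cell markers are genes whose RNA is found mostly in the dividing cells at the base of the crypt, the pit of the gut wall from which its lining is renewed. The genes followed here (Lgr5, Ascl2, Olfm4, Smoc2, Ephb2, Ephb3, Cd44, Prox1 and Sox9) are 9 of the 23172 genes listed in the files together, picked by name as known markers of these cells. They were counted in single cells of 5 mouse colon libraries made with inDrop, a method that barcodes the RNA of each cell in a droplet and counts molecules by unique molecular identifiers (UMIs). In 4 libraries the cells came from AOM/DSS tumors, which are induced in the colon by the mutagen azoxymethane and the irritant dextran sodium sulfate, in mice given 5FU+Irinotecan: day 1 (replicates 1 and 2), day 3 (1 library) and day 6 (1 library). The fifth library came from untreated normal colon that was prepared to enrich stroma.

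All 5 libraries were labelled WT, and the study used mice of C57BL/6J or mixed C57BL/6J and 129 background. No untreated tumor was among these libraries, so the day 1 libraries served as the early group and those of day 3 and day 6 together as the late group. The sources count the days both from the start and from the last cycle of treatment. Digested tumors were passed over a filter that held back epithelial crypts while free cells were discarded, so stromal and immune cells are those that stayed with the crypts. The libraries are described as biological replicates, but the labels do not give the animals behind each, and p-values below measure the spread between these libraries. Crypts were shaken off the normal colon before it was digested, so its epithelial cells are those that stayed behind.

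The mouse gut lining is renewed by stem cells that depend on WNT signals from their surroundings. Lgr5 is the receptor for R-spondins, which strengthen the WNT signal, and Lgr5 is itself switched on by it. Ascl2 is a transcription factor of the same cells, Olfm4 a secreted glycoprotein that marks them in the human gut and the mouse small intestine, and Smoc2 a calcium-binding matrix protein. Ephb2 and Ephb3 are receptors that hold cells in their place along the crypt, Cd44 is the receptor for hyaluronan, and Sox9 is a transcription factor of the lower crypt. Prox1 is a homeobox transcription factor switched on by WNT in colon tumors, and outside the epithelium it specifies lymphatic vessels.

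Cells with at least 500 genes and at most 15% of counts from mitochondria were kept, 748 and 2403 in the day 1 libraries, 1419 in day 3, 2826 in day 6 and 1095 in the normal colon. Library totals ran from 5132360 to 16904947 UMIs, and medians per cell from 2903 to 3601. Clusters were named by markers, and the names columnar, squamous, immune and so on stand for cells that carry those markers. Columnar cells, the ordinary lining of the colon, numbered 264, 1249, 532 and 685 in the tumor libraries in the order day 1 replicates 1 and 2, day 3 and day 6, and 329 in the normal colon. Squamous cells, which resemble skin and are foreign to the colon, numbered 52, 186, 278 and 729. Immune cells numbered 135, 578, 33, 480 and 147, and since they should not make the markers of a crypt, their level was read as the free RNA of each library. In the normal library, labelled as a fibroblast dissociation, 364 of the 1095 cells carried fibroblast markers. Any 2 libraries shared 4 to 41 cell barcodes.

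The labels of the classes were checked against their markers. The 14 squamous markers were all above the immune level in squamous cells of every tumor library, with a summed level of 25344 to 48205 counts per 1000000 UMIs (CPM) against 1553 to 5173 in immune cells. Of the 9 columnar markers listed, 8 or 9 were above the immune level in columnar cells of each library. Their summed level was 7522, 11179, 10934 and 17787 CPM in columnar cells of day 1 replicates 1 and 2, day 3 and day 6, against 3992, 5232, 8286 and 4987 CPM in immune cells, so the separation was narrowest in day 3. In the normal colon the same sums were 15339 and 591 CPM. A cluster of 694 day 6 cells led by goblet cell genes (median 1286.5 UMIs) stayed unnamed and out of the columnar class. So did a cluster of 398 cells, 386 of them from day 3, which was led by genes of mitosis such as Ccnb1 and Mki67 and also held the Paneth cell gene Defa24 among its leading genes once genes of like share in all clusters were dropped (median 1763 UMIs).

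The members lie on 9 chromosomes of GRCm38. All 9 are protein-coding genes, and Lgr5 for example spans chr10:115450314-115587780, Smoc2 chr17:14279490-14404790, Prox1 chr1:190118035-190170827 and Sox9 chr11:112782210-112787757. RefSeq (GRCm38.p6) promoter windows, from 250 bases before to 50 after the start, were at hand for 6 of the 9 members in 7 windows, and Lgr5, Smoc2 and Sox9 had none. The windows were read for CTTTGA and CTTTGT, the letters to which TCF and LEF factors bring the WNT signal, on both strands. Over all 32851 RefSeq promoter windows of this length, 16.0% held the first and 18.7% the second. The motifs share their first 5 letters, and matches on opposite strands can overlap. None of the 7 member windows held CTTTGA, and 1 held CTTTGT, at the second start of Prox1, the member with the lowest late level relative to early. That window, on the minus strand of chr1:190169466-190169765, is shown here with the match in capitals. Next to it is that of Ephb2, a member whose early and late columnar levels overlapped, on the minus strand of chr4:136835963-136836262. A match is no more than these letters, and a window without it says nothing of the factor.
Prox1, second start: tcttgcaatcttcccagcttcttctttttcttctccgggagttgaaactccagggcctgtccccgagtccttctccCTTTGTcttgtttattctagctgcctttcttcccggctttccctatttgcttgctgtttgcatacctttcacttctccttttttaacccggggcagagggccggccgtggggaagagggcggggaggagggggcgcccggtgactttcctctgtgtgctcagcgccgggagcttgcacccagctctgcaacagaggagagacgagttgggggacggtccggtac
Ephb2: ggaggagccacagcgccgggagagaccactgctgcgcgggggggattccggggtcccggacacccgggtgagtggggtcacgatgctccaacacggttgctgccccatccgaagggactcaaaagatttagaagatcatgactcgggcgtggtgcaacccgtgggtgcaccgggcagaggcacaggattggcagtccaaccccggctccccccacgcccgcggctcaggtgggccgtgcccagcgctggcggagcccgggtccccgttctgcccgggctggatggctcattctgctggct

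Levels in the columnar cells were read first, as CPM of the UMIs summed over the cells of a library. Lgr5 stood at 406 and 241 CPM in day 1 replicates 1 and 2, 116 CPM in day 3 and 26.6 CPM in day 6. Smoc2 followed the same order, at 369, 166, 104 and 23.5 CPM. Prox1 was at 646, 479, 89.9 and 23.8 CPM. For these 3 genes and for Sox9, at 398, 326, 230.3 and 107 CPM, both late libraries lay below both early ones.

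The other members took another course, in which day 3 was not low. Ephb2 read 227, 300.3, 424 and 183 CPM in the same order of libraries, and Ephb3 89.8, 101, 147 and 52.9 CPM. Cd44 read 291, 390.3, 395 and 77.8 CPM, with day 6 alone far below. Ascl2 read 45.3, 34.8, 62.1 and 8.64 CPM. In these 4 genes day 3 was the highest of the tumor libraries and day 6 the lowest, so early and late libraries overlapped. Counts summed over a class do not tell fewer cells with the RNA from less RNA per cell.

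**Figure D1:**
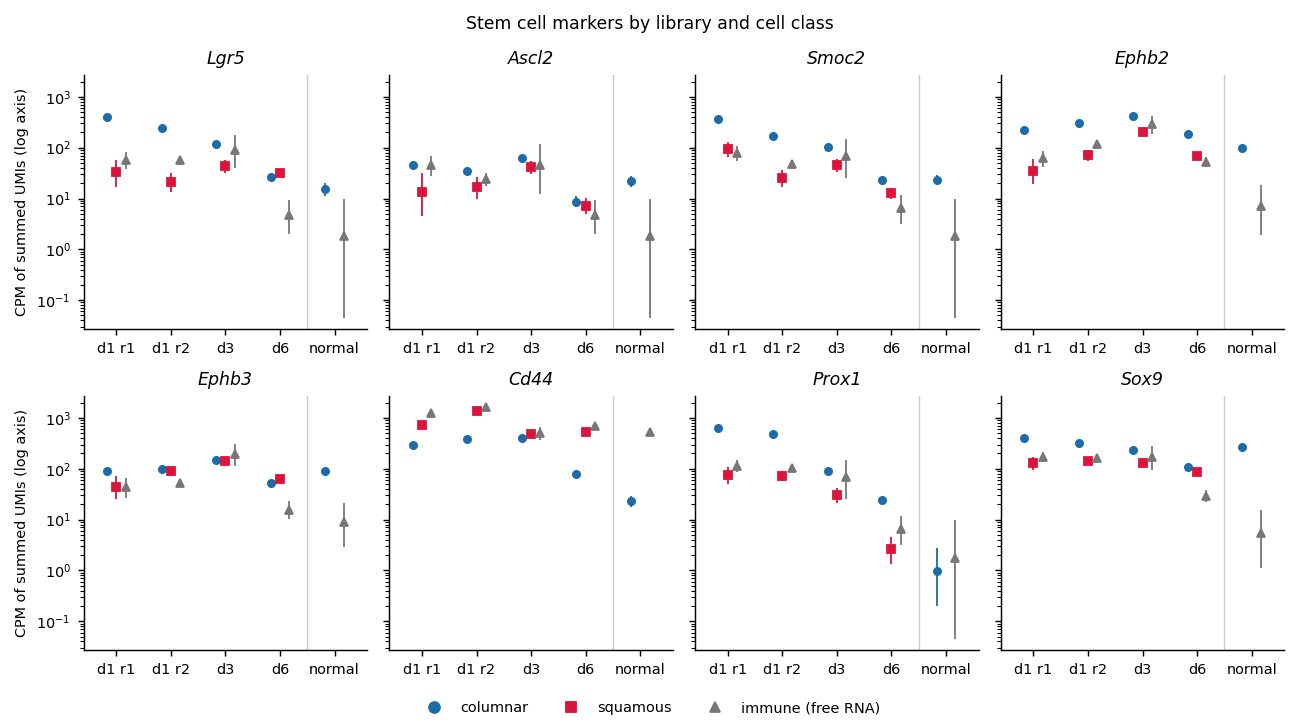
CPM of summed UMIs (log axis) of 8 members in columnar, squamous and immune cells of each library (d1 r1 and d1 r2, day 1 replicates 1 and 2; d3, day 3; d6, day 6; normal, normal colon stroma), with exact 95% Poisson bars for counting error. Olfm4 is left out for its low counts. The columnar points of Lgr5, Smoc2 and Prox1 step down from day 1 to day 6, and the immune points of day 6 lie lowest among the tumor libraries for every member but Cd44.

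Olfm4 was at the limit of detection. In columnar cells it had 1 UMI in day 1 replicate 2 and none in day 3, day 6 and the normal colon, where a count of 0 allows up to 0.832, 0.399 and 0.961 CPM. The file of day 1 replicate 1 does not list the gene. In squamous cells it had 6 UMIs, all in day 6 (1.30 CPM). It passed no filter on low counts and was not tested, so 8 of the 9 members entered each test.

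The level in immune cells, read as free RNA, was lowest in day 6, as the columnar level was. Lgr5 was at 57.4, 56.0, 91.6 and 4.69 CPM in immune cells of the 4 tumor libraries, on 28, 106, 8 and 8 UMIs. Columnar cells were thus above immune cells by 7.06-fold and 4.30-fold on day 1, by 1.27-fold in day 3 and by 5.67-fold in day 6. Prox1 gave 113, 105, 68.7 and 6.46 CPM in immune cells, and columnar over immune folds of 5.72, 4.56, 1.31 and 3.69. In day 3 the immune interval of Lgr5, from 39.5 to 180.4 CPM, took in the columnar value. A columnar CPM above the immune one was thus not detectable for Lgr5 there. The columnar cells of day 3 were deeper than the immune cells (median 5733.5 against 2041 UMIs), and levels in UMIs per cell were not compared here. For Ephb3 in day 3, immune cells were at 195 CPM, above columnar cells at 147 CPM. Cd44 in immune cells, at 1235, 1627, 504 and 690.1 CPM, is no reading of free RNA, since leukocytes make Cd44 themselves. In the normal colon, immune cells held 1 UMI each of Lgr5, Ascl2, Smoc2 and Prox1.

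The share of cells with a UMI gave the same order after each cell was thinned to 1000 UMIs. Lgr5 was then seen in 27.3%, 15.3%, 11.8% and 1.31% of columnar cells, against 5.19%, 4.67%, 6.06% and 0.640% of immune cells. Without thinning the columnar shares were 62.9%, 42.7%, 37.8% and 5.55%, at median depths of 7578.5, 5550, 5733.5 and 8742 UMIs, while immune medians ran from 2041 to 2485 UMIs. All columnar cells of the tumor libraries reached 1000 UMIs, as did 469 of the 480 immune cells of day 6 and all immune cells of the other tumor libraries. Thinned shares of Prox1 were 37.1%, 24.8%, 9.96% and 2.04% in columnar cells and 11.9%, 12.3%, 0% and 0.640% in immune cells. The day 3 immune value rests on 33 cells, where 0 cells allows a share of up to 10.6% (upper bound of the exact 95% binomial interval). Both orders are those of the summed levels.

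The late and early libraries were then compared by edgeR's quasi-likelihood test on the columnar sums, with Benjamini-Hochberg adjustment over all 13160 genes tested. No gene passed an adjusted p of 0.05 (0% of the genes tested, either direction), and so no member did. At an unadjusted p below 0.05, edgeR counted 2118 genes (16.1%), 1119 higher and 999 lower, and DESeq2 with its own adjustment called 605 of 20288 genes (2.98%). Lgr5 had a log2 change of -1.82 (SE 0.70, adjusted p = 0.287 in edgeR), Smoc2 of -1.71 (SE 0.74, adjusted p = 0.332) and Prox1 of -2.94 (SE 0.66, adjusted p = 0.210). Sox9 had -0.71 (SE 0.45) and Cd44 -0.15 (SE 0.71), while Ephb2 had 0.59 (SE 0.48), Ephb3 0.45 (SE 0.50) and Ascl2 0.17 (SE 0.81). Of the 8 members tested 3 were higher and 5 lower in the late libraries, with a median of -0.43, where 6724 of all genes were higher and 6436 lower, with a median of 0.02. In plain CPM the median gene was lower by 0.38 on the log2 scale in the late libraries (log2 change -0.38), so the fitted changes, which are scaled by TMM, are relative to that shift.

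The columnar cells, too, lay in different clusters by library: of those without the Mdga2-led cluster described further on, day 1 replicate 2 filled clusters of 532 and 327 cells, day 3 of 265 and 243, and day 6 of 388 and 276. The call on Prox1 depended on the method. DESeq2 gave Prox1 an adjusted p of 0.000387 and Lgr5 0.0983, and edgeR with the library structure as a block 0.0137 for Prox1, 0.0361 for Lgr5 and 0.0336 for Smoc2, with 452 genes called (3.43%). Without day 3 edgeR called 1495 genes (10.3%), and Lgr5 stood at a log2 change of -3.13 (adjusted p = 0.00620) and Prox1 at -4.09 (adjusted p = 0.00223). The structure is single index for day 1 replicate 1 and day 3, read on a BGI MGI-Seq, and dual index for day 1 replicate 2 and day 6, read on a NovaSeq. Within single index the log2 difference of day 3 and day 1 replicate 1 was -1.47 for Lgr5, -1.50 for Smoc2, -2.51 for Prox1 and -0.46 for Sox9. Within dual index that of day 6 and day 1 replicate 2 was -2.66, -2.30, -3.81 and -1.10, so these 4 genes were lower late within both. Ephb2 (1.23 and -0.21), Ephb3 (1.04 and -0.42), Cd44 (0.77 and -1.82) and Ascl2 (0.78 and -1.48) had opposite signs in the structures, and structure and day 3 against day 6 cannot be told apart. With TMM-scaled CPM, 4 of the 8 members (Lgr5, Smoc2, Prox1 and Sox9) were lower in both late libraries than in both early ones, against 25.6% of all genes tested, and no member was higher in both, against 24.3%.

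**Figure D2:**
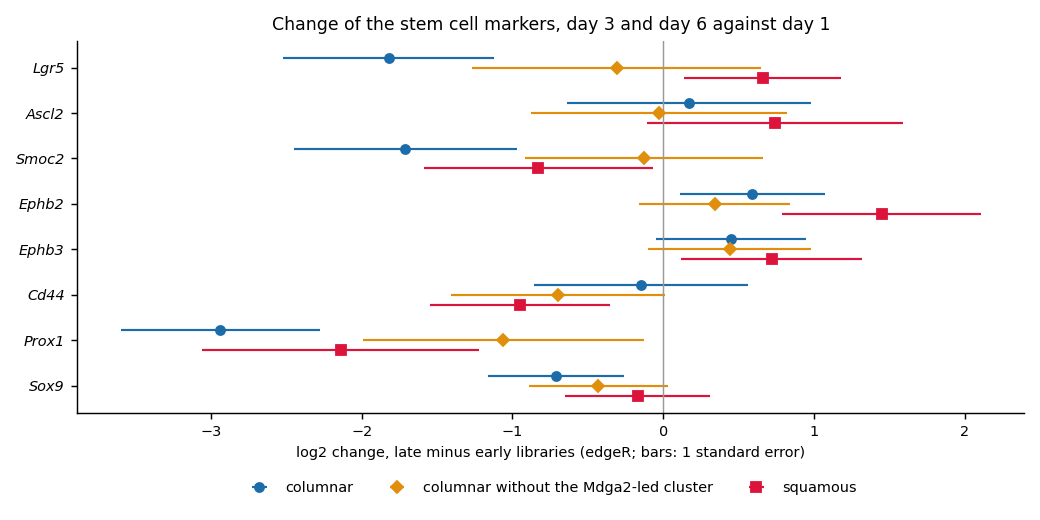
Log2 change of late against early libraries (edgeR, bars 1 SE) of 8 members in columnar cells, in columnar cells without the Mdga2-led cluster and in squamous cells. Prox1, Lgr5 and Smoc2 lie farthest to the left in columnar cells, at -2.94, -1.82 and -1.71, and nearer to 0 without that cluster.

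On day 1 most of the columnar UMIs of Lgr5, Smoc2 and Prox1 lay in a single cluster. It was led by Mdga2, a cell surface adhesion protein, and among its leading genes were the WNT inhibitors Wif1 and Dkk2 and the WNT feedback gene Nkd1. The cluster held 160 and 366 cells of day 1 replicates 1 and 2, but 21 of day 3 and 16 of day 6, which is 60.6%, 29.3%, 3.95% and 2.34% of the columnar cells. The members were left out of the genes used for clustering, yet every gene of clustered cells follows the partition, so what follows is a description.

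Within the Mdga2-led cluster Lgr5 was at 598, 484, 304 and 807 CPM in the 4 libraries, while in the other columnar clusters it was at 70.2, 97.8, 109.6 and 8.03 CPM. Prox1 was at 967, 1133, 675 and 778 CPM in the cluster and at 86.4, 95.2, 70.0 and 5.85 CPM outside it. Smoc2 was at 549.5, 308, 371 and 446 CPM in the cluster and at 54.9, 82.0, 95.0 and 13.5 CPM outside. For Lgr5, Smoc2 and Prox1 the 4 libraries do not overlap between inside and outside, and the late libraries are not below the early ones inside except for day 3 in Lgr5 and both late libraries in Prox1. Outside the cluster the CPM of Prox1 was below that of immune cells on day 1 and in day 6, and at 70.0 against 68.7 CPM in day 3. Those columnar cells were deeper, with medians of 6108, 4447, 5724 and 8716 UMIs against 2485, 2414, 2041 and 2466.5. They held 96, 686, 244 and 43 Prox1 UMIs in 104, 883, 511 and 669 cells. Immune cells held 55, 199, 6 and 11 in 135, 578, 33 and 480 cells. Per cell, Prox1 UMIs were thus higher outside the cluster than in immune cells.

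**Figure D3:**
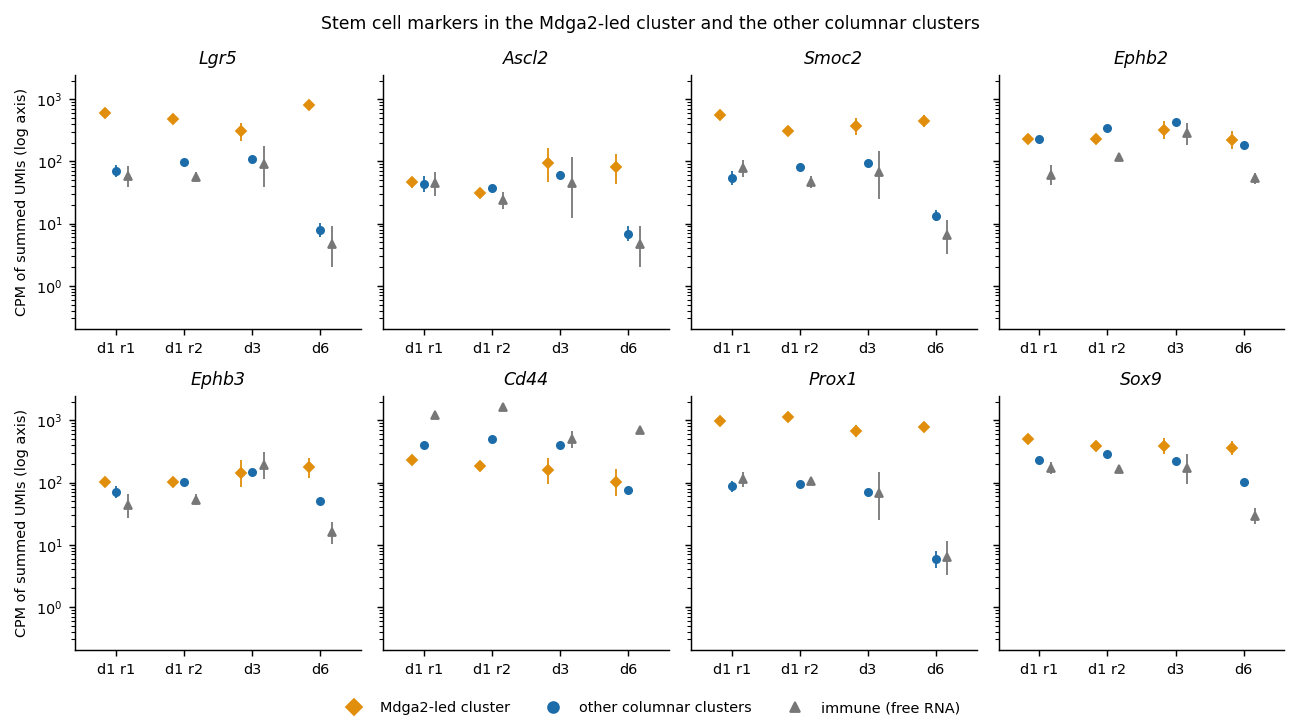
CPM of summed UMIs (log axis) of 8 members in the Mdga2-led cluster, the other columnar clusters and immune cells of the 4 tumor libraries (labels as in the plot by class; exact 95% Poisson bars for counting error). Lgr5, Smoc2 and Prox1 lie above the other columnar clusters in every library, while Ephb2 lies near them and Cd44 below them in 3 of the 4.

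The cluster held most of the columnar UMIs of those 3 genes on day 1, and in day 6 most of those of Lgr5 and Prox1. It carried 93.7%, 74.4%, 8.61% and 70.5% of the Lgr5 UMIs of columnar cells in day 1 replicates 1 and 2, day 3 and day 6, on 63.6%, 37.0%, 3.29% and 2.32% of all columnar UMIs. Of Prox1 it carried 95.1%, 87.5%, 24.7% and 76.0%, and of Smoc2 94.6%, 68.8%, 11.7% and 44.1%. Ephb2 was spread like RNA in general, at 63.5%, 27.8%, 2.48% and 2.83%, and Cd44 was under that share in 3 libraries, at 49.9%, 17.8%, 1.33% and 3.08%. Sox9 lay between these, at 78.8%, 44.0%, 5.54% and 7.81%.

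**Figure D4:**
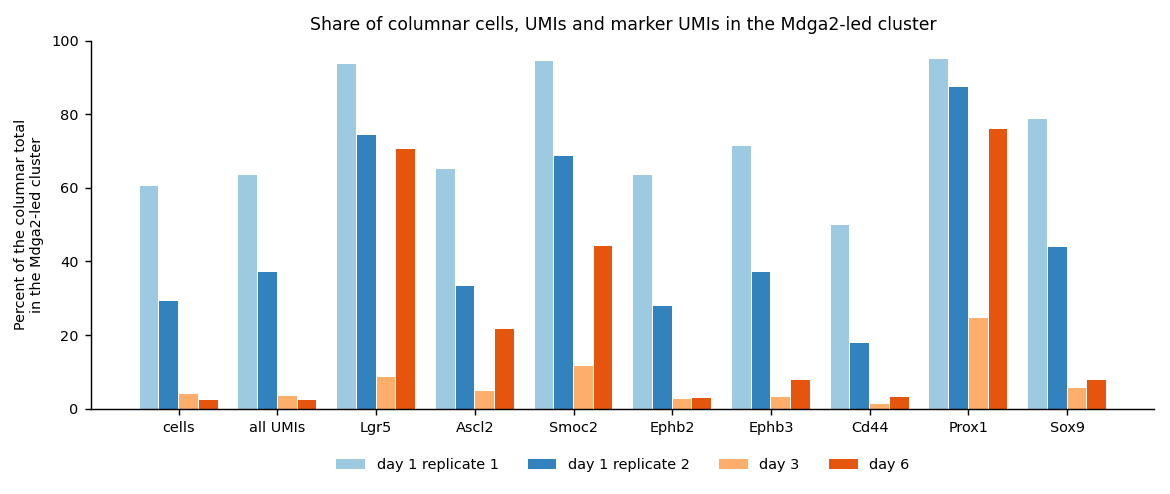
Percent of the columnar cells, of all columnar UMIs and of the columnar UMIs of 8 members that lay in the Mdga2-led cluster, by tumor library, with bars from 0. In day 6 the cluster held 2.34% of columnar cells and 70.5% of Lgr5, 76.0% of Prox1 and 44.1% of Smoc2 UMIs.

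When the Mdga2-led cluster was left out, an alternative chosen after the data were seen, the log2 change of late against early columnar cells was -0.31 for Lgr5 (SE 0.96), -0.13 for Smoc2 and -1.06 for Prox1 (SE 0.93), and edgeR called none of 12652 genes. In this cluster the naming of the class is weak. Its 9 columnar markers summed to 4580.3, 4391, 5643 and 5439.7 CPM, near the immune sums and well under the 11114 to 18081 CPM of the other columnar clusters, and 6, 3, 2 and 5 of the 9 were above the immune level. It was taken as columnar by UMIs per cell, of which its cells hold many (median 9401, 9801, 5852 and 9003.5 UMIs). The share of its cells among those with the highest Scrublet doublet scores, set at 6% of each library, was 7.50%, 7.38%, 0% and 0%. In the other columnar clusters that share was 6.73%, 3.28%, 5.48% and 3.29%. The part of doublets in these values was not tested.

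In day 3 most Lgr5 UMIs of columnar cells lay elsewhere. A cluster led by Fstl4, with 265 cells of day 3 and 34 of day 1 replicate 1, had 189 CPM of Lgr5 in day 3 and 84.1 CPM in day 1 replicate 1. Its day 3 cells also had 95.8 CPM of Ascl2, 153 of Smoc2, 441 of Ephb2 and 113 of Prox1. In the other large columnar cluster of day 3, led by Car1 with 243 cells, Lgr5 was at 26.7 CPM and Ascl2 at 24.9 CPM, but Ephb2 at 416 CPM. The columnar clusters of day 6 with over 200 cells had 5.02 and 8.78 CPM of Lgr5, with 176 and 185 CPM of Ephb2. Across these clusters, high Ephb2 went with high as well as low Lgr5. The unnamed clusters had 83.3 CPM of Lgr5, 301 of Ephb2 and 62.5 of Prox1 in the 386 day 3 cells. These values were below the columnar sums of day 3, and that of Lgr5 was also below the immune level there. The 694 day 6 cells had 5.66, 165 and 5.66 CPM. For Lgr5 and Prox1 this was well below the day 6 columnar sums. It was near the day 6 columnar clusters with over 200 cells, where Prox1 was at 5.69 and 5.77 CPM.

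Among columnar cells thinned to 1000 UMIs, cells with an Lgr5 UMI more often held Prox1 and Smoc2. Prox1 was seen in 50.0%, 45.0%, 23.8% and 33.3% of cells with Lgr5 and in 32.3%, 21.2%, 8.10% and 1.63% of cells without it, on 72, 191, 63 and 9 cells with Lgr5 in day 1 replicates 1 and 2, day 3 and day 6. Smoc2 gave 37.5%, 26.7%, 22.2% and 33.3% against 16.1%, 11.2%, 10.2% and 0.444%. Both genes were on the side of Lgr5 in every library. So was Sox9, at 27.8%, 33.0%, 34.9% and 33.3% of cells with Lgr5 against 25.5%, 22.7%, 21.3% and 10.8% of cells without it. Ascl2 and Ephb3 were on either side of Lgr5. Ephb2 (18.1%, 29.3%, 27.0% and 22.2% against 20.3%, 27.1%, 32.2% and 14.9%) and Cd44 (20.8%, 23.0%, 31.7% and 11.1% against 21.4%, 31.6%, 30.3% and 7.40%) were on either side of it. Cells of a library are no replicates, and these shares have no test.

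The squamous cells held low levels of the members that led the columnar pattern. Lgr5 was at 32.8, 21.4, 43.8 and 31.1 CPM in day 1 replicates 1 and 2, day 3 and day 6, on 12, 22, 49 and 143 UMIs. These levels were under those of immune cells on day 1 and in day 3, by 0.570-fold, 0.382-fold and 0.479-fold, and are read there as free RNA. In day 6 squamous cells were 6.62-fold above immune cells and close to columnar cells, which were at 0.855 of the squamous level. The day 6 squamous cells held 143 UMIs of Lgr5 and 12 of Prox1, where immune cells of that library held 8 and 11. The part of free RNA in the squamous level was not tested. Within day 6 the squamous Lgr5 lay mostly in a cluster led by Krt17, Col17a1 and Trp63, genes of basal squamous cells, at 52.9 CPM (116 UMIs in 345 cells). The other squamous clusters of day 6 were at 11.6 and 8.01 CPM. In the 46 cells of that Krt17-led cluster from day 1 replicate 2, Lgr5 was at 12.7 CPM on 6 UMIs.

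Prox1 in squamous cells was at 76.4, 72.8, 30.4 and 2.61 CPM, below the immune level in every library. Smoc2 was at 92.8, 25.3, 44.7 and 12.6 CPM and Sox9 at 131, 141, 132 and 85.9 CPM, and Sox9 was above immune cells in day 6 alone, by 2.93-fold. Ascl2 was at 13.6, 16.5, 41.2 and 7.18 CPM. Ephb2 was at 35.5, 70.9, 204 and 67.4 CPM and Ephb3 at 43.7, 90.3, 141 and 63.9 CPM. In day 6, squamous cells were also above immune cells in Ephb3 (4.04-fold), Smoc2 (1.95-fold), Ascl2 (1.53-fold) and Ephb2 (1.26-fold). They were below them in Cd44 (0.758-fold) and Prox1 (0.404-fold). Cd44 was the exception among the members, at 742, 1368, 473 and 523 CPM, above columnar cells in every library.

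Columnar minus squamous differences of log2(CPM + 1), averaged over the 4 tumor libraries, put the members in order. They were 2.52 ± 0.68 for Prox1 (SD, n = 4 libraries), 2.05 ± 1.81 for Lgr5, 1.80 ± 0.70 for Ephb2 and 1.67 ± 0.81 for Smoc2. Sox9 gave 0.98 ± 0.55, Ascl2 0.88 ± 0.61, Ephb3 0.24 ± 0.55 and Cd44 -1.54 ± 1.03. Neighbours in this order differ by less than the larger of their SDs, with the exception of the steps from Ascl2 to Ephb3 and from Ephb3 to Cd44. The difference was of one sign in all 4 libraries for Prox1, Ephb2, Smoc2, Sox9, Ascl2 and Cd44, and turned in day 6 for Lgr5 (-0.22) and Ephb3 (-0.27).

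In the test of late against early squamous cells, edgeR called none of 9737 genes (0%), with 395 genes (4.06%) at an unadjusted p below 0.05, and DESeq2 called 22 of 18209 (0.121%). No member was called. The libraries filled the squamous class from different clusters, with 273 of the 278 cells of day 3 in a cluster led by Krt14, 124 of the 186 of day 1 replicate 2 in another, and 345, 236 and 146 cells of day 6 in the clusters above, so kinds of squamous cell and change within a kind cannot be told apart. Prox1 had a log2 change of -2.14 (SE 0.92), Ephb2 of 1.45 (SE 0.66) and Lgr5 of 0.66 (SE 0.52), each with an adjusted p of 0.999. Lower in both late than in both early libraries were 2 of the 8 members, against 13.7% of genes, and higher 2, against 18.1%. Without day 3, Prox1 stood at -4.70 (adjusted p = 0.00229), with 53 genes called (0.506%).

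Whether the change differed between the classes was tested by an interaction term with the library as a block. EdgeR called none of 13087 genes, with 1237 (9.45%) at an unadjusted p below 0.05. Lgr5 had the largest difference of the members, a squamous change above the columnar one by a log2 value of 2.70 (SE 0.51, adjusted p = 0.174). Without day 3 it was 3.37 (adjusted p = 4.18e-10, 6.74% of genes called) and without day 6 it was 1.98 (adjusted p = 0.00592, 1.40% called), so its call rests on which libraries were fitted. Without day 1 replicate 1 it was 2.58 and without day 1 replicate 2 it was 2.97, with adjusted p-values of 0.439 and 0.876. Smoc2 differed by 1.00 (SE 0.38, adjusted p = 0.471) and the other members by -0.37 to 0.76.

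The columnar change was set against that of the immune cells in the same way. Here edgeR called 850 of 12985 genes (6.55%) and none of the 8 members, while 2244 genes (17.3%) had an unadjusted p below 0.05. The difference was -0.31 for Lgr5 (SE 0.51, 95% interval -1.31 to 0.70), -0.11 for Smoc2 (SE 0.51) and -0.49 for Prox1 (SE 0.50). A difference between the columnar and the immune change was therefore not detectable for these 3 genes. Free RNA of a library can come from its columnar cells and fall with them. The comparison thus cannot tell whether the columnar level was lower beyond free RNA. With blood endothelial cells in place of immune cells, an alternative chosen after the data were seen, edgeR called 40 of 12273 genes (0.326%), and Lgr5 had a difference of -3.25 (SE 0.81, adjusted p = 0.0235). Those endothelial sums held 2, 4, 21 and 0 UMIs of Lgr5 in day 1 replicates 1 and 2, day 3 and day 6, on 12 to 61 cells.

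Against the normal colon, the summed columnar level of the tumors, with its free RNA, differed most in Prox1. In normal columnar cells Prox1 had 3 UMIs (0.961 CPM, interval 0.198 to 2.81), Lgr5 15.4 CPM, Smoc2 23.1, Ascl2 21.8, Cd44 22.8, Ephb2 99.0, Ephb3 90.4 and Sox9 273. The tumor minus normal difference of log2(CPM + 1) over the 4 tumor libraries was 6.37 ± 2.20 for Prox1 (SD, n = 4), 3.36 ± 1.11 for Cd44, 3.03 ± 1.69 for Lgr5 and 2.22 ± 1.64 for Smoc2. It was 1.44 ± 0.52 for Ephb2 and within 1 SD of 0 for Ascl2 (0.48 ± 1.19), Ephb3 (0.02 ± 0.60) and Sox9 (-0.20 ± 0.83). At a clustering resolution of 0.5 these differences were larger for Lgr5 (5.29), Smoc2 (4.43), Cd44 (5.08), Ascl2 (3.51 ± 1.18) and Ephb3 (1.97 ± 0.59), so the values near 0 of Ascl2 and Ephb3 hold for a resolution of 1 and of 2 only, and Sox9 was at 0.35. In day 6 Lgr5 was 0.75 and Smoc2 0.03 above normal on this scale, and Ascl2, Ephb3 and Sox9 were below it by log2 values of -1.24, -0.76 and -1.34. Immune cells of every tumor library, read as free RNA, held more Prox1 in CPM than the normal columnar cells did. The weakly named Mdga2-led cluster held 95.1%, 87.5%, 24.7% and 76.0% of the columnar Prox1 UMIs of the 4 tumor libraries. The part of free RNA in the tumor minus normal differences was not tested. The normal colon is 1 library of another preparation, so tissue and preparation cannot be told apart.

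The genes around the members in the WNT pathway were read from lists. Of 16 WNT feedback and target genes 14 were lower and 2 higher in late columnar cells, with a median log2 change of -1.99, where all genes had 0.02. None passed the adjusted test, 10 were lower at an unadjusted p below 0.05 (7.59% of all genes), and 12 were lower in both late than in both early libraries (25.6% of all genes). The largest changes were those of the WNT inhibitor Wif1, at -3.34 (907, 476, 97.9 and 9.84 CPM in day 1 replicates 1 and 2, day 3 and day 6), the WNT transcription factor Lef1, at -3.31 (155, 141, 16.6 and 6.52 CPM), and the WNT inhibitor Dkk2, at -3.00 (519, 575, 95.4 and 11.3 CPM). Wif1, Dkk2 and Nkd1 (-2.93) are among the genes that led the cluster above, so their course is no separate observation. The sums hold that cluster, and the changes of the list without it are not given. The lists, here and below, were chosen with earlier results of these data known, so their shares are descriptions and no test. In squamous cells 13 of 14 tested were lower, with a median of -0.90, and none was called. Of all 9737 genes 4611 were lower, with a median of 0.04. Of the 14, 1 was lower at an unadjusted p below 0.05, and 5 were lower in both late libraries (13.7% of all genes). The part of free RNA in these squamous levels was not tested.

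Other crypt base genes lay on both sides. Of 14 tested in columnar cells 10 had a lower and 4 a higher fitted value late, with a median of -0.13 and none called. Both late libraries were below both early ones for 5 of the 14 (25.6% of all genes) and above them for 2 (24.3%). The RNA-binding proteins Msi1 (-2.23) and Mex3a (-2.06, at 69.2, 46.3, 16.4 and 5.32 CPM) were among the lower ones, and the vitamin D receptor Vdr (1.90, at 31.2, 37.5, 49.9 and 138 CPM) among the higher. Of 14 colonocyte differentiation genes 13 were tested and all 13 had higher fitted values late, with a median of 1.72, 6 at an unadjusted p below 0.05 (8.50% of all genes), 8 above both early libraries in both late ones (24.3% of all genes), and none called. Among these the carbonic anhydrase Car4 stood at 4.94 (1.64, 1.05, 13.0 and 44.3 CPM) and the brush border protein Ceacam20 at 2.63 (26.2, 38.5, 48.3 and 245 CPM). The chloride channel regulator Clca4b stood at 3.08, with 111, 160.1, 83.2 and 1571 CPM, so that day 3 lay below both early libraries and day 6 alone above them.

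The partners of the receptors were described by class. Lgr4, the R-spondin receptor of most epithelia, was at 122, 149.9, 89.6 and 143 CPM in columnar cells of the tumors and 196 CPM in the normal colon, with no course like that of Lgr5. Lgr6, the relative of Lgr5 that marks stem cells of the skin, was at 57.3, 239.9, 91.3 and 33.3 CPM in squamous cells and at 0.656, 5.42, 10.3 and 1.06 CPM in columnar cells. Rspo3, a ligand of these receptors, was at 98.2 CPM in smooth muscle or pericyte cells and 27.5 CPM in fibroblasts of the normal colon, and at 48.0, 8.19 and 86.5 CPM in lymphatic endothelial cells of day 1 replicate 2, day 3 and day 6. Of the 8 partners 4 passed the filter in columnar cells, with changes from 0.07 to 1.22 (Efnb1, a ligand of the Eph receptors) and none called.

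Likeness to the members was read over 27 sums of library and class with at least 50 cells, as Pearson's r of log2(CPM + 10) among 12720 genes, and it is given without a p because sums of a library share its free RNA and depth. The genes most like Lgr5 were Smoc2 (r = 0.91), Cpn1 (0.90), Rnf43 (0.90), Axin2 (0.89) and Mboat2 (0.88), of which Rnf43 and Axin2 dampen WNT signals. With Lgr5, Ascl2 had r = 0.74, Sox9 0.74, Prox1 0.73, Ephb2 0.65, Ephb3 0.57 and Cd44 0.09. Cd44 thus stood apart from the rest, and its own nearest gene was Adam8 (0.83). The nearest gene was Cpn1 for Smoc2 (0.94), Tmprss4 for Ephb2 (0.95), Fhl2 for Ephb3 (0.89), Efna4 for Ascl2 (0.88), Mt4 for Prox1 (0.88) and B930095G15Rik for Sox9 (0.91). Mt4 was also among the leading genes of the Mdga2-led cluster.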

How the data were processed

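The authors deposited unnormalized UMI counts, a gene by cell table for each library, made with dropEst and GRCm38. Cells with fewer than 500 genes or more than 15% mitochondrial UMIs were removed here. Library structure (single or dual index) was taken from the labels.

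Treated libraries were clustered together and the normal library alone (Python 3.11.15, scanpy 1.11.5, leidenalg 0.10.2: 2000 variable genes, 20 components, 20 neighbours, resolution 1, seed 1), without the members and list genes that are not naming markers. A cluster was named from fixed marker lists where at least 3 markers had 2 times the level of other cells and a UMI in 10% of cells. The remaining clusters were called columnar or squamous if their markers were 1.25 times those of non-epithelial cells of the same libraries, in CPM or in UMIs per cell. Clusters whose median depth was below that of their library divided by 3 and that had no leading marker, or with more leading markers of another class than their own, stayed unnamed. The last rule was set after the data were seen. Scrublet called 12 of 7396 treated cells and 7 of 1095 normal cells, too few to be taken as working, so no doublets were removed.

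UMIs were summed per library and class. Late and early sums were tested with the quasi-likelihood test of edgeR 4.0.16 in R 4.3.3, after filterByExpr and with TMM scaling, calling genes at a Benjamini-Hochberg adjusted p of 0.05, with DESeq2 1.42.0 as an alternative. Classes are clusters of the same cells and got no test against each other. Intervals are exact 95% Poisson or binomial intervals and, with the floor of 3 counts for a 0, cover counting error only. The edgeR test was tested on simulated data (dispersion 0.05, log2 change of 2) and called 87 of 97 changed genes in columnar and 82 of 94 in squamous cells, 50 of 100 in the comparison of squamous and columnar changes and 27 of 100 in that of columnar and immune changes. At a log2 change of 1 it called 19 of 95, 11 of 94, 4 of 100 and 0 of 100 in the same order. The dispersion was a fixed setting and was not estimated from these libraries, so these shares hold for that setting only. Alternatives were other tools, filters, clustering resolutions, doublet removal, thinning to 1000 UMIs, cells of the class and each library left out in turn. All members were named, with the 3 genes of each list with the largest change in columnar cells. The members and lists were chosen with earlier results of these data known.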

Additional observations from a re-analysis of the deposited data

Results flagged for a closer look

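The change of Lgr5 in squamous cells was above its change in columnar cells by a log2 value of 2.70 (SE 0.51, 95% interval 1.70 to 3.71, edgeR interaction, adjusted p = 0.174), a difference between the cell classes that passed an unadjusted p (0.000500) and not the adjusted one. Without the Mdga2-led cluster it was 1.88 (SE 0.94).

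Some members had levels above the immune cells in classes outside the comparisons. Prox1 was at 978 CPM in lymphatic endothelial cells of day 1 replicate 2 (224 UMIs in 37 cells), at 205 CPM in day 3 and 282 CPM in day 6, and at 721 CPM in those of the normal colon, which is the known site of Prox1 outside the gut lining. In enteroendocrine cells Prox1 was at 586 CPM in day 1 replicate 2 (124 UMIs in 17 cells) and at 541 CPM in day 1 replicate 1 (11 cells), against 93.7 CPM in day 6. Of these cells 41.2%, 36.4% and 7.69% were among the highest Scrublet doublet scores, set at 6% of each library. The part of doublets in these Prox1 levels was not tested. Ephb3 was at 143 CPM in fibroblasts of the normal colon (145 UMIs in 364 cells), above its 90.4 CPM in columnar cells of the same library. Olfm4 had 1.30 CPM in squamous cells of day 6, on 6 UMIs in 6 cells, and none in immune cells of that library.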

How the results depend on the processing

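Counts of genes called in late against early columnar cells, 0 in the analysis reported, were 605 with DESeq2, 1067 with no filter on low counts, 452 with the library structure as a block, 83 with day as a linear covariate and 3 with columnar clusters of low marker fold left out, and from 0 to 1495 when each library was left out in turn (10 without day 1 replicate 1, 1495 without day 3 and 265 without day 6). In squamous cells they were 22, 91 and 14 with DESeq2, no filter and the block, and from 0 to 53 with a library left out (43 without day 1 replicate 1, 13 without day 1 replicate 2 and 53 without day 3). For the squamous minus columnar change they were 8 with the unnamed clusters included and from 0 to 971 with a library left out (971 without day 3 and 181 without day 6). For the columnar minus immune change, 850 as reported, they were 40 with blood endothelial cells, 163 without the Mdga2-led cluster and from 97 to 1869 with a library left out (102 without day 1 replicate 1, 97 without day 1 replicate 2, 1869 without day 3 and 434 without day 6). The causes were not tested.

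In columnar cells Lgr5, Smoc2, Prox1 and Sox9 had a negative log2 change under all 16 alternatives, from -3.13 to -1.13 for Lgr5, -3.03 to -0.97 for Smoc2, -4.09 to -2.30 for Prox1 and -1.28 to -0.30 for Sox9 with a library left out. The sign turned for Ascl2 with the block (-0.35), with day (-0.29), with thinned cells (-0.28), without low marker clusters (-0.59) and without the Mdga2-led cluster (-0.03), and ran from -1.72 to 0.99 with a library left out. Ephb3 turned with day (-0.05) and ran from -0.37 to 0.98, Ephb2 from -0.04 to 1.04 and Cd44 from -1.65 to 0.57. Without day 3, Ascl2 (-1.72, adjusted p = 0.0315 in edgeR), Cd44 (-1.65, adjusted p = 0.0489) and Smoc2 (-3.03, adjusted p = 0.0119) were called lower. In squamous cells Ascl2 turned with day (-0.18) and ran from -1.01 to 1.58, Smoc2 from -1.99 to 0.25, Ephb3 from -0.04 to 1.44 and Sox9 from -0.57 to 0.13.

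In the squamous minus columnar change, leaving out the Mdga2-led cluster turned Smoc2 (-0.23), Cd44 (0.18) and Prox1 (-1.02), and with a library left out Ephb3 ran from -0.08 to 1.05, Cd44 from -1.49 to 0.76 and Prox1 from -0.71 to 1.15. In the columnar minus immune change, leaving out that cluster turned Lgr5 (0.17), Smoc2 (0.79), Ephb2 (-0.14) and Prox1 (0.44), and blood endothelial cells turned Ascl2 (-0.60), Ephb2 (-1.60), Ephb3 (-0.63), Cd44 (-0.40) and Sox9 (-0.83). With a library left out Lgr5 ran from -1.31 to 0.51, Smoc2 from -0.67 to 0.25, Ephb2 from -0.25 to 0.62, Ephb3 from -0.66 to 1.14 and Cd44 from -0.69 to 2.45. There Cd44 was called in opposite directions without day 3 (-0.69) and without day 6 (2.45), and Ephb3 (1.14) and Sox9 (1.17) were called without day 3. In the squamous minus columnar change Cd44 was called without day 6 (-1.49). At a clustering resolution of 0.5 the tumor minus normal difference of log2(CPM + 1) was 5.29 for Lgr5, 3.51 for Ascl2, 4.43 for Smoc2, 2.06 for Ephb2, 1.97 for Ephb3 and 5.08 for Cd44.

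No paired analysis was possible because the groups compared share fewer than 2 replicate numbers. The block used above is library structure, which ties 1 early to 1 late library by index and sequencer and not by animal or number. The immune comparison without neutrophils and macrophages was not run, since day 3 then has too few immune cells. Day 3 has 33 immune cells, and Lgr5 has 8 UMIs in the immune cells of day 3 and of day 6, which limits every reading against free RNA there.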

Other observations

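Genes looked at after the data were seen describe the Mdga2-led cluster further. Vim, an intermediate filament of mesenchymal and immune cells, was at 1710.0, 792, 2041 and 589 CPM in the cluster in day 1 replicates 1 and 2, day 3 and day 6, against 118, 51.6, 116 and 15.5 CPM in the other columnar clusters and 1623, 1028, 778 and 726 CPM in immune cells. Cdx2, a transcription factor of intestinal identity, was at 9.80, 11.8, 8.44 and 5.72 CPM in the cluster against 82.8, 66.6, 58.5 and 16.6 CPM in the other columnar clusters. Cdh1, an adhesion gene of epithelial cells, was at 920.0, 543, 658 and 509 CPM in the cluster. It was at 1413, 1135, 1172 and 894 CPM in the other columnar clusters and at 505, 383, 629 and 233 CPM in immune cells. Ptprc, a gene of immune cells, was at 6.19, 8.51, 16.9 and 11.4 CPM in the cluster. In immune cells Ptprc was at 482, 702, 114 and 363 CPM. The 9 fibroblast markers summed to 55.7, 29.8, 84.4 and 34.3 CPM in the cluster, and the 9 macrophage markers to 147, 107, 33.7 and 143 CPM.

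In Paneth-like cells, which are led by defensin genes, Sox9 was at 322 and 333 CPM in day 1 replicates 1 and 2, and Prox1 at 246 and 131 CPM.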
